A study of Mus musculus with 6 samples.

Results

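Nuclear receptors and their coregulators are described here in the liver of mice on a high-fat diet with or without allantoin. The set was fixed by name: 38 genes, of which 32 encode receptors and 6 encode coregulators, were looked up by their GENCODE M21 symbols among the 54532 genes of the count table. All 38 were found, and 36 were among the 12795 genes that passed the filter on low counts and were tested. The vitamin D receptor gene Vdr, with at most 3 counts in a library, and Hnf4g, a relative of Hnf4a, with at most 1, did not pass it.

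Nuclear receptors are transcription factors that sit on DNA as single molecules or pairs and, in most cases, change their activity when a small lipid-soluble molecule binds them. In hepatocytes they read fatty acids (PPARs), bile acids (FXR, the product of Nr1h4), oxysterols (LXRs), foreign compounds (CAR and PXR), retinoids, thyroid hormone and steroids, and many of them need RXR as their partner. Coactivators such as the Ncoa proteins and corepressors such as Ncor1 are recruited by the receptors to open or close chromatin, so that the level of a receptor's mRNA and the activity of the receptor are different quantities.

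The libraries came from livers of male wild-type C57BL/6J mice, 8 weeks old at the start, with 3 in the HFD group and 3 in the HFD+Allantoin-H group. Both groups were kept on the high-fat diet for 4 weeks and then for a further 4 weeks, and in this second phase the HFD+Allantoin-H mice drank water with allantoin, a purine breakdown product. The labels name 0.06 and 0.3 mg/mL without a dose per library, and 0.3 mg/mL was taken from the study's methods for this group. There was no library from mice on normal chow, so the effect of the diet itself could not be measured. The labels do not state that each library is a separate animal; if some were not, p-values would measure only technical spread.

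The libraries held 11326372 to 14601457 counts, of which 16092 to 35622 fell on the 38 genes. Counts of the mitochondrial chromosome took 17.9% to 36.5% of an HFD library and 6.92% to 11.4% of an HFD+Allantoin-H library, and levels are given as CPM, read counts scaled by library size and TMM factor, which offsets such differences in composition. The 10 hepatocyte markers summed to 103332 to 105147 CPM in HFD and 80754 to 112152 CPM in HFD+Allantoin-H, with overlap. Singly, 5 of them were called lower and 2 higher, with a median log2 fold change of -0.69, against 13.0% lower and 11.3% higher over all tested genes. A pair of HFD libraries stood apart. HFD replicate 1 had the highest share of mitochondrial counts (36.5% against 20.2% and 17.9% in the other HFD libraries), and its 10 most abundant genes held 43.0% of its counts. HFD replicate 2 differed in other genes. Nr5a1, a nuclear receptor of steroid-making cells and no member of the set, had 52 counts in that library and 0 in the other 5. Of the enzymes of steroid synthesis that were looked at beside it, chosen after Nr5a1 was seen, Cyp11a1 had 219 and Cyp11b1 had 160 counts in HFD replicate 2 and 0 elsewhere. Star was at 74.3 CPM there and at 1.59 to 2.51 CPM in the other libraries. Calls of the set are given without each of these libraries where that changes them.

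Sequences of the promoters of 3 genes are shown because the largest changes among the lipid sensors and their partner were found in Ppara and Rxra, and because Nr1h4 was the member with the smallest adjusted p among those with lower levels. Each is the stretch of 250 bases before an annotated RefSeq start (GRCm38.p6), written 5′ to 3′ on the strand of the gene. Capitals mark the receptor half-site AGGTCA or its reverse complement, and the GC box GGGCGG or its reverse complement. For Rxra, which has a further annotated start, the start with half-sites is shown. Which start was in use was not measured.
Ppara, chr15:85735526-85735775, plus strand: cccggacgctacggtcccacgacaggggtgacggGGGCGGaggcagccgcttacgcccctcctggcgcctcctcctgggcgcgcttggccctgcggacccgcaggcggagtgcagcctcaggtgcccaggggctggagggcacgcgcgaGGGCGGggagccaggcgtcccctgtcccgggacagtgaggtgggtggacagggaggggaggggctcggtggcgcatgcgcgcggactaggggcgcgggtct
Rxra, chr2:27709042-27709291, plus strand: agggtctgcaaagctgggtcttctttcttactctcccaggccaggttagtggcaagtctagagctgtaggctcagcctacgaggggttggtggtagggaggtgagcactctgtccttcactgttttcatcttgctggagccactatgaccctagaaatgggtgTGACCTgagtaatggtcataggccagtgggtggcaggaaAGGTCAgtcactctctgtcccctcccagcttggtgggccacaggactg
Nr1h4, chr10:89506659-89506908, minus strand: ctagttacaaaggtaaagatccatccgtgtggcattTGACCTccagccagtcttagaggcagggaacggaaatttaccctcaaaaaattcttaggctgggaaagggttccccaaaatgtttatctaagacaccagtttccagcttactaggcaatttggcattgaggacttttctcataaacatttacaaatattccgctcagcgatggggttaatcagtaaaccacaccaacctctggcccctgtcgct

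The Ppara stretch was 76.4% G or C with 2 GC boxes and no half-site. In the Rxra stretch (55.2% G or C) there were 2 half-sites, 1 on each strand, and no GC box, whereas the Nr1h4 stretch (44.4% G or C) had 1 half-site. The further Rxra start, not shown, did hold GC boxes and was 83.0% G or C, counted to 50 bases after the start. RefSeq promoters, counted from 250 bases before to 50 bases after a start, were found for 32 of the 38 genes, with 53 starts. The half-site AGGTCA was in 10 of these 53 promoters (18.9%) and in 16.3% of all 32851 promoters, and the GC box GGGCGG was in 45.3% and 35.7%, both strands searched. The paired arrangements that receptor dimers bind, direct repeats of AGGTCA with a spacer of 0 to 5 bases and the inverted repeat with a spacer of 1, had no exact match in the promoters of the set. Each had an exact match in only 2 to 13 of all 32851 promoters (0.00609% to 0.0396%). With 53 promoters their absence is therefore no trait of the set. These matches are descriptions of letters and show neither binding nor its absence.

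Of the 36 tested genes, 7 were higher under allantoin (HFD+Allantoin-H against HFD) and 0 were lower at an adjusted p under 0.05 (edgeR quasi-likelihood test, Benjamini-Hochberg adjustment over all 12795 genes). Over all tested genes 11.3% were higher and 13.0% were lower. The 7 genes were the fatty acid receptor Ppara, the partner receptor Rxra, the thyroid hormone receptor Thrb, the glucocorticoid receptor Nr3c1, the oestrogen receptor Esr1, and the orphan receptors Nr2f2 and Nr5a2. All are receptors, 7 of 30 tested, and 0 of 6 coregulators passed the test, too few genes to set the classes apart. Outside the set, too, the classes held few genes, and no order between them is read. There, 5 of 19 other coactivators were higher and 4 lower, 3 of 15 other corepressors were higher and 2 lower, and of 7 other nuclear receptors 0 were higher and 1 lower. The median log2 fold change was 0.28 over the 36 genes and -0.030 over all tested genes. At an unadjusted p under 0.05, 11 members were higher and 3 were lower, against 18.6% and 20.5% of all tested genes. DESeq2 called 9 members higher and 1 lower, against 13.7% and 15.4% of all genes in that fit. The limma-voom counts were 8 and 1, against 11.9% and 12.5%.

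The 3 values of one group lay entirely above those of the other in 13 members with higher levels under allantoin and in 3 with lower levels. Among all tested genes such separation was seen in 22.4% for higher and 21.9% for lower levels. The 13 were the 7 genes above with Nr1h3, Rarb, Rora, Nr2f6, Ncoa2 and Ncor1, and the 3 were Nr1h2, Nr1h4 and Rxrg. The exact permutation test has 0.1 as its smallest possible p for 3 libraries a group, and calls therefore use the error model that edgeR fits over all genes.

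**Figure D1:**
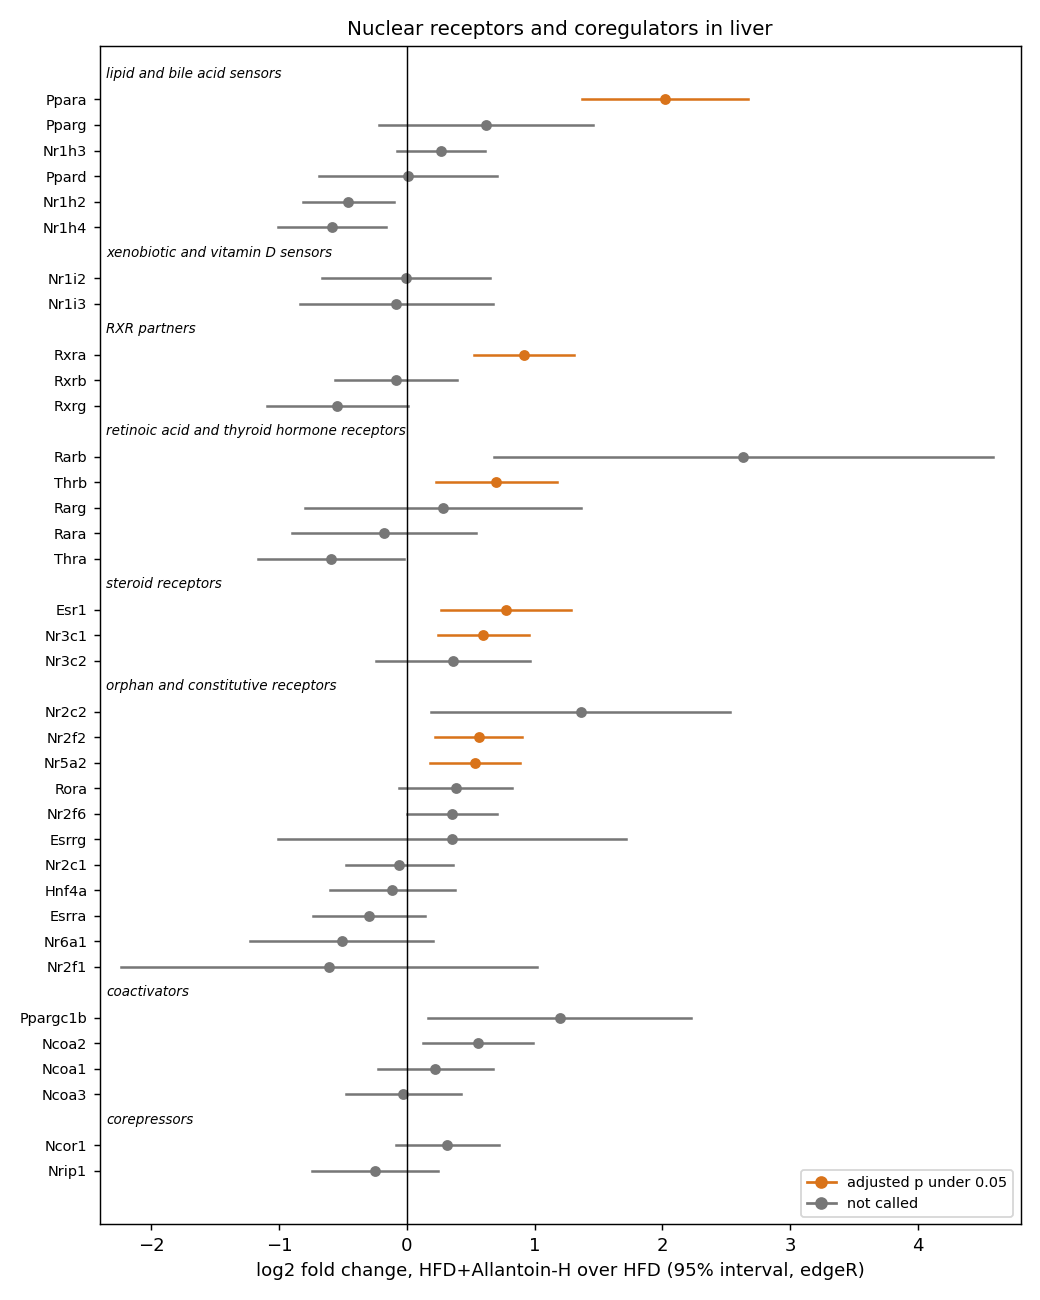
Log2 fold changes (HFD+Allantoin-H over HFD, horizontal axis) of the 36 tested genes with 95% intervals from edgeR, grouped by role and ordered by value. Orange marks the 7 genes with an adjusted p under 0.05, all to the right of 0, and Ppara at 2.02 lies farthest from 0 among them.

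Among the lipid and bile acid sensors, Ppara showed the largest called change. It encodes the receptor that switches on mitochondrial and peroxisomal fatty acid oxidation in fasting and under fibrates. Ppara (ENSMUSG00000022383, chromosome 15, 85734983 to 85802819, GRCm38) stood at 39.1, 27.4 and 18.9 CPM in HFD replicates 1 to 3 and at 109, 146 and 91.4 CPM in HFD+Allantoin-H replicates 4 to 6. The lowest treated library thus held more than the highest control library, by a wide gap. The means were 28.4 ± 10.1 and 115 ± 27.6 CPM (SD, n = 3 each), a log2 fold change of 2.02 (standard error 0.29, 95% interval 1.37 to 2.67, adjusted p = 0.00389, edgeR), that is 4.06-fold. It stayed called in each of the 16 other ways of processing that were run, with log2 fold changes of 1.80 to 2.48.

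The other PPAR genes did not pass the test. Ppard, the widely expressed member of the family, ranged from 3.46 to 5.24 CPM in HFD and from 3.85 to 5.68 CPM in HFD+Allantoin-H. Its log2 fold change was 0.0089 with a 95% interval from -0.69 to 0.70, so a change within that interval, in either direction, is not excluded. Pparg, the adipogenic family member, measured 8.73, 8.20 and 15.3 CPM in HFD and 11.4, 12.2 and 26.1 CPM in HFD+Allantoin-H, with replicate 6 standing above the rest (log2 fold change 0.62, adjusted p = 0.250, edgeR). Summed adipocyte markers were highest in HFD replicate 2 (254 CPM against 35.7 to 82.2 CPM elsewhere), the library with the lowest Pparg value. Only 1 of the 5 markers passed the filter on low counts, and the part of adipocytes in the Pparg values was not tested.

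Nr1h4, which encodes the bile acid receptor FXR, went the other way in level without passing the threshold. Its values were 225, 151 and 197 CPM in HFD and 123, 118 and 140 CPM in HFD+Allantoin-H, so that every treated library lay under every control library. The log2 fold change was -0.59 (standard error 0.19, 95% interval -1.01 to -0.16, adjusted p = 0.0507, edgeR). It was called lower in 6 of the 16 other ways of processing, among them the fit without HFD replicate 2, and not in the other 10, so the call depends on the processing. With library sizes alone as the scale the log2 fold change was -0.16.

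The LXR genes encode oxysterol receptors that turn on cholesterol efflux and lipogenesis. Nr1h2 (LXRβ) was at 46.4, 38.2 and 42.1 CPM in HFD and at 27.9, 32.9 and 31.5 CPM in HFD+Allantoin-H, a separation without overlap that missed the threshold (log2 fold change -0.46, adjusted p = 0.0624, edgeR). Nr1h3 (LXRα), the major LXR of liver, was at 74.6, 83.0 and 83.9 CPM against 101, 103 and 87.7 CPM, with a log2 fold change of 0.27 (95% interval -0.077 to 0.62, adjusted p = 0.226, edgeR). With the trend of transcript length and GC content removed, Nr1h3 was called higher at a log2 fold change of 0.50 and Nr1h2 was at -0.12.

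The xenobiotic sensors Nr1i2 (PXR) and Nr1i3 (CAR), which induce drug-metabolizing enzymes, had means close to each other in the groups and wide spreads in HFD. Nr1i2 ran from 34.9 to 84.7 CPM in HFD and from 52.4 to 69.9 CPM in HFD+Allantoin-H (log2 fold change -0.0046, 95% interval -0.66 to 0.65). Nr1i3 ran from 15.6 to 47.2 CPM and from 26.5 to 31.1 CPM (log2 fold change -0.083, 95% interval -0.84 to 0.67). In both genes HFD replicate 3 was the lowest of the 6 libraries and HFD replicate 1 the highest. The exons of Nr1i3 share 3304 bases, 74.9% of their length, with Tomm40l on the opposite strand, and whether the counting used strand is not given, so reads of the pair may have been mixed.

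Rxra encodes the partner with which PPARs, LXRs, FXR, CAR, PXR, retinoic acid and thyroid hormone receptors pair. Rxra (ENSMUSG00000015846, chromosome 2, 27676440 to 27762957) was at 199, 212 and 187 CPM in HFD and at 391, 424 and 313 CPM in HFD+Allantoin-H. The groups were far apart, with the HFD values within 1.13-fold of each other. The means were 199 ± 12.5 and 376 ± 56.7 CPM (SD, n = 3 each), a log2 fold change of 0.92 (standard error 0.17, 95% interval 0.53 to 1.31, adjusted p = 0.00787, edgeR). As for Ppara, the call held in all 16 other ways of processing, with values of 0.83 to 1.34. The sister genes were not called. Rxrb was between 22.9 and 27.8 CPM in HFD and between 17.1 and 27.9 CPM in HFD+Allantoin-H (log2 fold change -0.083). Rxrg, the scarcest of the partners, was at 6.77, 7.70 and 6.52 CPM against 4.99, 5.03 and 4.39 CPM, without overlap (log2 fold change -0.54, adjusted p = 0.133, edgeR).

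**Figure D2:**
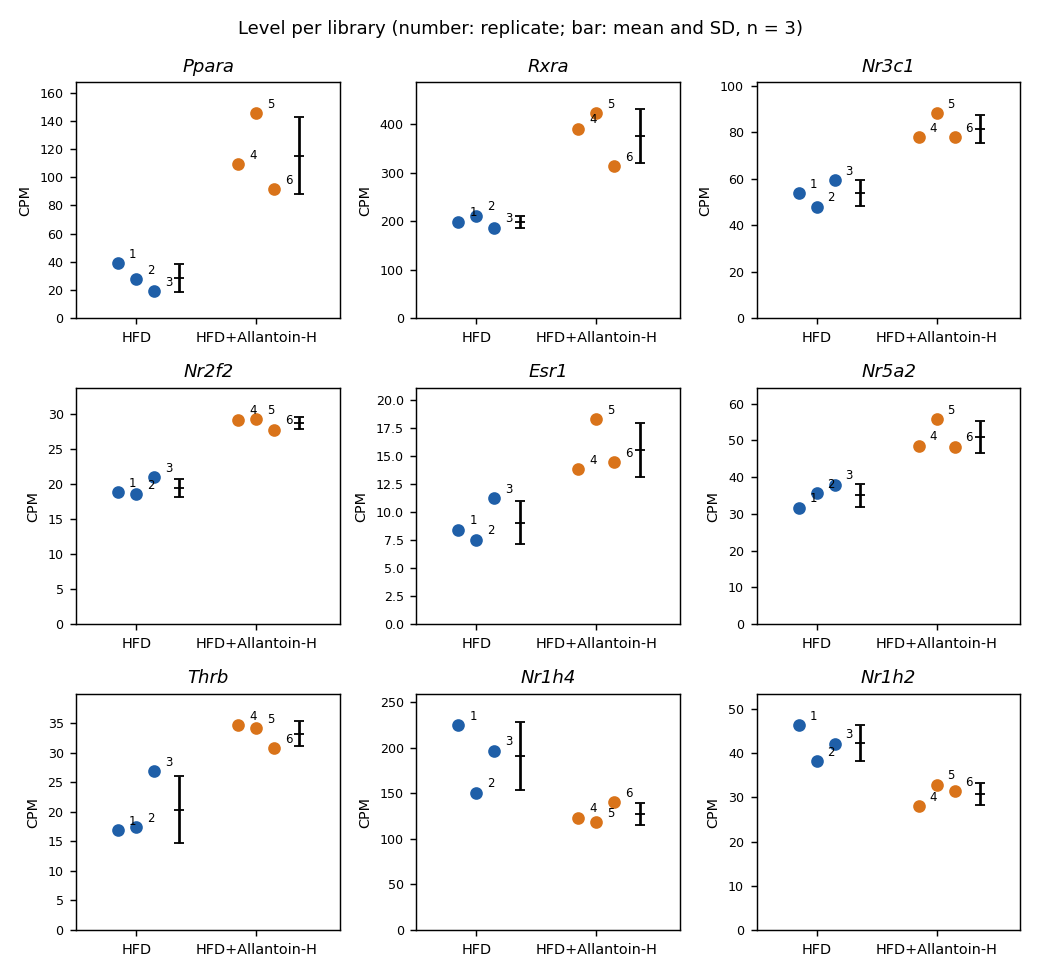
CPM (vertical axes, from 0) in each library for the 7 genes called higher and for Nr1h4 and Nr1h2, with replicate numbers beside the points and black bars for the mean and SD of 3 libraries. The 7 called genes have all 3 HFD+Allantoin-H points above all 3 HFD points, and Nr1h4 and Nr1h2 have them below.

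Of the hormone receptors of this family, Thrb, the main thyroid hormone receptor of hepatocytes, was called higher. Thrb (chromosome 14, 17660261 to 18038090) was at 16.9, 17.4 and 26.9 CPM in HFD and at 34.7, 34.2 and 30.8 CPM in HFD+Allantoin-H. HFD replicate 3 came closest to the treated group. The means were 20.4 ± 5.64 and 33.3 ± 2.11 CPM (SD, n = 3 each), or 0.70 ± 0.21 on the log2 scale (fold change and standard error; adjusted p = 0.0391, edgeR), and it was called in 10 of the 16 other ways of processing. Thra, which encodes the other thyroid hormone receptor, was at 18.2, 15.6 and 11.1 CPM against 11.7, 7.57 and 10.5 CPM, with overlap (log2 fold change -0.59, adjusted p = 0.115, edgeR), and without HFD replicate 3 it was called lower at -0.77. Its exons share 263 bases with Nr1d1 on the opposite strand.

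The retinoic acid receptors were scarce and none passed the test. Rara was between 11.96 and 30.7 CPM in HFD and between 15.7 and 23.2 CPM in HFD+Allantoin-H (log2 fold change -0.18). Rarg was between 1.67 and 5.79 CPM and between 2.77 and 5.72 CPM (log2 fold change 0.28). Rarb, which is itself a retinoic acid target, had 0, 4 and 1 counts in the HFD libraries and 11, 12 and 24 counts in the HFD+Allantoin-H libraries. The groups did not overlap, but at this depth the fitted log2 fold change of 2.63 had a 95% interval from 0.68 to 4.58 (adjusted p = 0.0543, edgeR). Without HFD replicate 2, which holds the 4 counts, Rarb was called higher at 4.23 (adjusted p = 0.0308, edgeR), and leaving out single libraries gave 2.14 to 4.23. It also shares 1793 exon bases with Top2b on the opposite strand.

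The steroid receptors with tested counts included 2 called genes. Nr3c1, the glucocorticoid receptor gene (chromosome 18, 39410545 to 39519421), was at 53.7, 48.0 and 59.3 CPM in HFD and at 77.8, 88.3 and 78.0 CPM in HFD+Allantoin-H. All treated libraries lay above all controls. The means of 53.7 ± 5.64 and 81.3 ± 6.0 CPM (SD, n = 3 each) differed by 0.60 ± 0.16 on the log2 scale (fold change and standard error; adjusted p = 0.0258, edgeR), called in 11 of the 16 other ways of processing. Esr1, the gene of oestrogen receptor α (chromosome 10, 4611593 to 5005614), was scarcer, at 8.41, 7.51 and 11.2 CPM against 13.8, 18.3 and 14.4 CPM. It rose from 9.04 ± 1.93 to 15.5 ± 2.43 CPM (SD, n = 3 each), or 0.78 ± 0.22 on the log2 scale (fold change and standard error; adjusted p = 0.0355, edgeR), called in 10 of those 16. The mineralocorticoid receptor gene Nr3c2 was between 7.42 and 13.6 CPM in HFD and between 11.1 and 14.3 CPM in HFD+Allantoin-H (log2 fold change 0.36), and was called higher without HFD replicate 3, at 0.70.

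Among the orphan and constitutively active receptors, 2 of 11 tested were called higher. Nr5a2 encodes LRH-1, a receptor that drives bile acid synthesis genes together with other liver factors. Nr5a2 (chromosome 1, 136842571 to 136960448) was at 31.7, 35.6 and 37.96 CPM in HFD and at 48.5, 55.8 and 48.3 CPM in HFD+Allantoin-H. It rose from 35.1 ± 3.18 to 50.9 ± 4.30 CPM (SD, n = 3 each), or 0.54 ± 0.16 on the log2 scale (fold change and standard error; adjusted p = 0.0362, edgeR), and was called in 10 of the 16 other ways of processing. Nr2f2 encodes COUP-TFII, which is known from vascular and mesenchymal cells as well as hepatocytes. Nr2f2 (chromosome 7, 70351944 to 70366735) was at 18.9, 18.6 and 20.98 CPM against 29.3, 29.3 and 27.8 CPM, with little spread in either group. The log2 fold change was 0.56 ± 0.15 (standard error; adjusted p = 0.0268, edgeR), with a call in 11 of those 16. Its exons share 643 bases with the noncoding gene B130024G19Rik on the opposite strand.

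Markers of other liver cell types were counted beside Nr2f2, and their calls are read against 11.3% higher and 13.0% lower over all tested genes. The 9 stellate cell markers, of which 6 were called higher and 0 lower, summed to 158 to 230 CPM in HFD and 356 to 412 CPM in HFD+Allantoin-H (exact permutation p = 0.1, two-sided, the smallest possible). The 7 macrophage markers, of which 3 were called higher and 0 lower, summed to 106 to 255 and 300 to 339 CPM. The 7 endothelial markers summed to 74.2 to 150 and 129 to 201 CPM, with 0 called and with overlap, and all 7 had positive log2 fold changes. Median log2 fold changes were 0.97 for the stellate cell, 1.29 for the macrophage and 0.54 for the endothelial markers. Of the 3 tested cholangiocyte markers 0 were called higher and 1 lower (median log2 fold change -0.57), and of the 3 tested lymphocyte markers 0 were called (median -0.072). Their part in the change of Nr2f2 or of any other receptor was not tested. In bulk tissue, more cells of a type and more RNA per cell cannot be told apart.

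The remaining orphan receptors did not pass the test. Hnf4a, which holds the hepatocyte programme, was at 637, 527 and 387 CPM in HFD and at 516, 513 and 404 CPM in HFD+Allantoin-H, with an interval of -0.60 to 0.37 around a log2 fold change of -0.11. Rora, a receptor linked to the clock and to lipid metabolism, was at 42.5, 32.4 and 48.0 CPM against 48.9, 62.6 and 48.7 CPM (log2 fold change 0.38). Nr2f6 was at 32.9, 41.2 and 38.5 CPM against 45.6, 51.3 and 46.9 CPM (log2 fold change 0.35), and 54.4% of its exon bases are shared with Ocel1 on the other strand. Nr2c2, the gene of TR4, was at 3.60, 2.57 and 0.836 CPM against 5.86, 8.28 and 3.58 CPM (log2 fold change 1.36, 95% interval 0.19 to 2.53, adjusted p = 0.0854, edgeR). Nr2c2 shares 4590 exon bases with Mrps25, which fell (log2 fold change -0.82, adjusted p = 0.0231, edgeR), and 2070 bases at 98.0% identity with the pseudogene Gm42933. The log2 fold changes of Nr2c1, Nr2f1, Nr6a1, Esrra and Esrrg lay between -0.61 and 0.35. Esrrg, an oestrogen-related receptor, had 1 HFD value far below the others, 0.988 CPM in replicate 2 against 5.24 and 7.36 CPM.

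None of the 6 coregulators passed the test, with a median log2 fold change of 0.27. Ppargc1b, a coactivator of mitochondrial and lipid genes, was at 2.07, 1.28 and 1.17 CPM in HFD and at 3.81, 4.61 and 1.89 CPM in HFD+Allantoin-H, with overlap (log2 fold change 1.20, 95% interval 0.17 to 2.22, adjusted p = 0.0843, edgeR). Ncoa2, a p160 coactivator, was at 25.3, 23.9 and 26.8 CPM against 31.4, 47.0 and 33.3 CPM, without overlap (log2 fold change 0.56, adjusted p = 0.0627, edgeR). Its relatives Ncoa1 and Ncoa3 had log2 fold changes of 0.22 and -0.026. The corepressor genes Ncor1 (53.7 to 74.5 CPM in HFD, 75.9 to 92.3 CPM in HFD+Allantoin-H) and Nrip1 (10.4 to 12.8 and 7.62 to 11.002 CPM) had log2 fold changes of 0.32 and -0.25.

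Levels of different genes were compared as CPM per kilobase of exon. Hnf4a stood first in both groups, at 107 ± 26.0 in HFD and 99.0 ± 13.2 in HFD+Allantoin-H (SD, n = 3 each). Nr1h4 came next in HFD at 82.8 ± 16.3, within the spread of Hnf4a, followed by Rxra at 36.4 ± 2.29 and Nr1h3 at 32.0 ± 2.05. In HFD+Allantoin-H the mean of Rxra (68.8 ± 10.4) stood above that of Nr1h4 (55.2 ± 5.09), and their values overlapped. The level of Ppara was 7.42 ± 2.64 in HFD, the ninth of the 38 genes and within the spread of Esrra (8.37 ± 0.906), Nr3c1 (6.98 ± 0.734) and Nr1i3 (6.95 ± 3.59). In HFD+Allantoin-H it was the fifth at 30.1 ± 7.20, between Nr1h3 (38.6 ± 3.22) and Nr1i2 (23.3 ± 3.60), and its spread overlapped both.

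**Figure D3:**
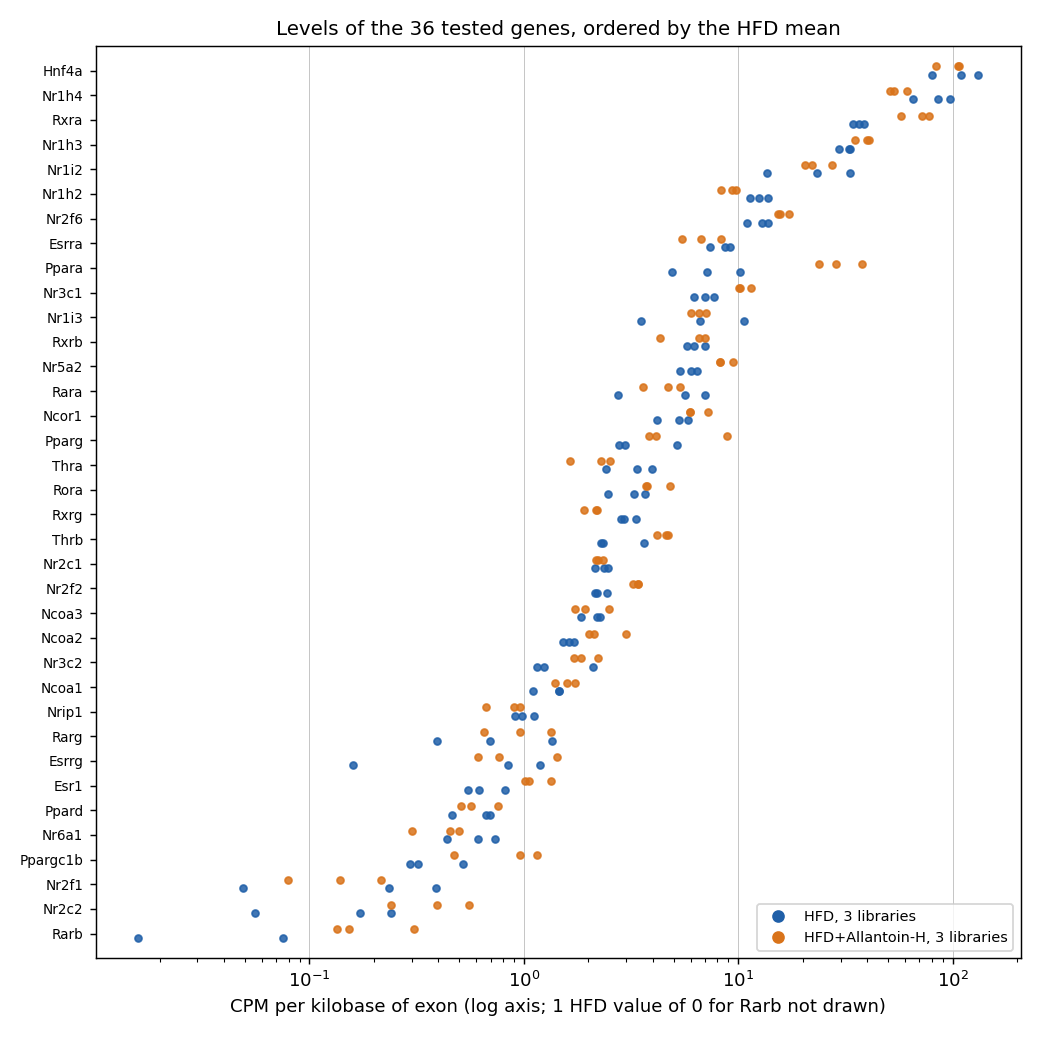
CPM per kilobase of exon (horizontal log axis) of the 36 tested genes in each library, blue for HFD and orange for HFD+Allantoin-H, ordered by the HFD mean. Levels span from Rarb at the bottom to Hnf4a at the top, and the orange points of Ppara, from 23.8 to 37.9, lie well to the right of its blue points, from 4.93 to 10.2.

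Ratios of 2 genes within a library do not depend on how libraries are scaled, and 5 were formed after the values had been seen. The ratio of Ppara to Hnf4a, per kilobase, was 0.0772, 0.0654 and 0.0615 in the HFD libraries and 0.266, 0.357 and 0.285 in the HFD+Allantoin-H libraries. The ratio of Rxra to Hnf4a was 0.276, 0.355 and 0.426 in HFD and 0.670, 0.730 and 0.685 in HFD+Allantoin-H. Ppara over Rxra was 0.280, 0.184 and 0.144 against 0.397, 0.489 and 0.415. Each of these 3 ratios separated the groups without overlap (exact permutation p = 0.1, two-sided, the smallest possible). Ppara over Nr1h4 also did, with means of 0.0903 and 0.555. That separation was fixed beforehand, since every HFD+Allantoin-H library lay above HFD for Ppara and below it for Nr1h4. The ratios reuse values given above and are no separate evidence. The ratio of Nr1h4 to Hnf4a was 0.740, 0.600 and 1.07 in HFD against 0.500, 0.482 and 0.728 in HFD+Allantoin-H, and its groups overlapped (exact permutation p = 0.2, two-sided).

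Fold changes in the set varied with transcript length and GC content, as they did over all genes. Among members whose longest transcript exceeds 4000 bases, 6 of 17 were called higher with a median log2 fold change of 0.38, while 0 of 8 under 2500 bases were called, with a median of -0.38. Over all tested genes the medians in these classes were 0.13 and -0.25, and 15% and 6.79% were called higher. The Spearman correlation across genes of log2 fold change with transcript length was 0.36 over the 36 members and 0.21 over all tested genes. With the GC content of the longest transcript it was -0.36 over the members and -0.16 over all tested genes. Genes are not independent replicates, and the points share libraries, so these are descriptions. When each library's trend over transcript length and GC content was removed, Ppara and Rxra remained called at 2.003 and 0.98. Thrb, Nr3c1, Esr1, Nr2f2 and Nr5a2 were then at 0.49, 0.38, 0.57, 0.42 and 0.35 and were no longer called (adjusted p = 0.0511 to 0.0996, edgeR). Their transcripts are all over 4000 bases and of 42.2% to 45.4% G or C, so length and GC content were not separated. Nr1h3, Nr2f6 and Ppargc1b were called higher. The target lists described after these results were counted in the same fit, where 11.9% of all tested genes were higher and 11.1% lower. Counts higher and lower were 14 and 2 for PPARA, 7 and 0 for LXR, 7 and 1 for CAR and PXR, and 6 and 3 for FXR. They were 3 and 5 for the glucocorticoid receptor, 1 and 2 for retinoic acid receptors and 2 and 0 for thyroid hormone receptors. For HNF4A they were 3 and 7, with a median log2 fold change of 0.037, against -0.16 in the main fit. Thrb, Nr3c1, Esr1, Nr2f2 and Nr5a2 also lost their call when any one of the 3 HFD+Allantoin-H libraries was left out. Calls over all tested genes dropped as well in those fits, to 3.48% to 5.31% higher, against 11.3% in the main fit. Without HFD replicate 1, Thrb, Esr1 and Nr5a2 lost their call (adjusted p = 0.0891, 0.0719 and 0.0629, edgeR), and Ppara, Rxra, Nr3c1 and Nr2f2 stayed called. Over all genes of that fit 9.27% were higher and 10.2% lower. Without HFD replicate 2 the called members were Ppara, Rxra and Rarb, higher, and Nr1h4, lower, against 9.83% higher and 12.5% lower over all genes.

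**Figure D4:**
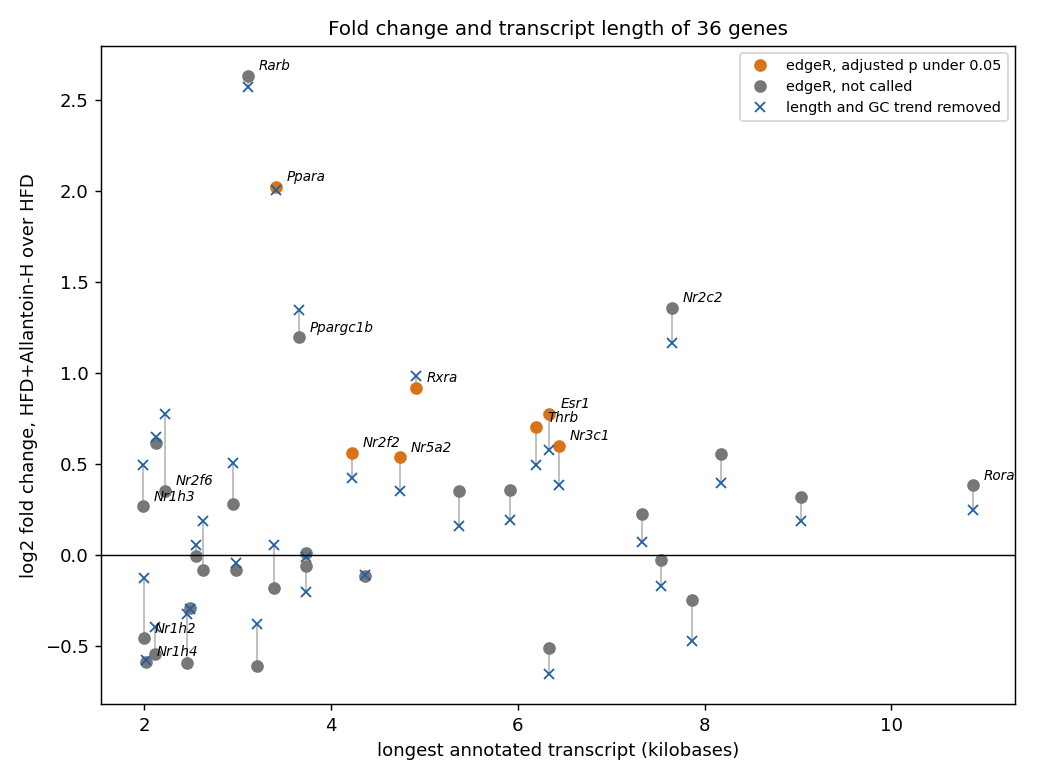
Log2 fold change (vertical axis) against the longest annotated transcript in kilobases (horizontal axis) for the 36 tested genes. Filled points are the edgeR values (orange, adjusted p under 0.05) and crosses the values with the length and GC trend removed, which leave Ppara and Rxra at 2.003 and 0.98 and bring Thrb, Nr3c1, Esr1, Nr2f2 and Nr5a2 nearer to 0.

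Known target genes of the receptors were counted from lists written from general knowledge, and the counts are read against the same 11.3% higher and 13.0% lower over all tested genes. Of 37 PPARA targets, 13 were higher and 4 lower (12 and 2 without HFD replicate 2), with a median log2 fold change of 0.36. Acadvl and Hadha, enzymes of mitochondrial β-oxidation, rose by log2 fold changes of 2.01 (adjusted p = 0.00296, edgeR) and 1.63 (adjusted p = 0.00389, edgeR). Cpt1a, which admits fatty acids to mitochondria, was at 273, 265 and 298 CPM against 485, 681 and 451 CPM (log2 fold change 0.95, adjusted p = 0.0106, edgeR). The microsomal hydroxylase Cyp4a14 rose by 2.26 (adjusted p = 0.0109, edgeR). Not all listed targets moved upward. Fgf21, a fasting hormone, fell by 2.82 on the log2 scale (adjusted p = 0.0403, edgeR) from 27.3, 4.54 and 2.84 CPM to 1.76, 0.710 and 2.43 CPM, with HFD replicate 1 far above the rest. Cyp4a10 and Pdk4 were at 0.88 and -1.04 without a call.

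Of 15 tested FXR targets 5 were higher and 2 lower, with a median of 0.13. The list mixes genes that the receptor induces, such as Nr0b2, with repressed ones, such as Cyp7a1. Its counts and median therefore give no direction of FXR activity. Nr0b2 encodes SHP, an orphan receptor without a DNA-binding domain that FXR induces and that represses bile acid synthesis. It was at 85.5, 88.6 and 36.6 CPM in HFD and at 21.9, 15.1 and 22.9 CPM in HFD+Allantoin-H and fell by 1.81 on the log2 scale (adjusted p = 0.00721, edgeR). Cyp7a1, the rate-limiting enzyme of bile acid synthesis and a gene that SHP represses, rose from 31.8, 22.1 and 30.5 CPM to 61.1, 151 and 84.1 CPM (log2 fold change 1.81, adjusted p = 0.00660, edgeR). The bile salt export pump gene Abcb11, a direct FXR target, was at -0.29 and Cyp8b1 at 0.43, both without a call. LXR targets counted 7 higher and 0 lower of 15 with a median of 0.64, among them Srebf1 (0.64, adjusted p = 0.0253, edgeR), while Abca1 and Scd1, at 0.46 and 0.57, were not called.

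CAR and PXR targets counted 8 higher and 1 lower of 22 tested, with a median of 0.74, although the levels of Nr1i2 and Nr1i3 showed no call. Ugt1a1, which conjugates bilirubin and shares exons with its Ugt1a neighbours, rose by 2.53 (adjusted p = 0.00153, edgeR) and the exporter gene Abcc3 by 1.49 (adjusted p = 0.00248, edgeR). The reporter genes of these receptors in mouse, Cyp2b10 and Cyp3a11, gave no call. Cyp2b10 was at most 0.675 CPM in every library and not tested, and Cyp3a11 was at 0.71 (adjusted p = 0.280, edgeR). Glucocorticoid receptor targets counted 3 higher and 5 lower of 16 with log2 fold changes from -3.58 to 1.67 and a median of -0.52. Fkbp5 rose by 0.77 (adjusted p = 0.0148, edgeR), whereas Tsc22d3, which encodes GILZ, fell by 1.52 on the log2 scale (adjusted p = 0.0353, edgeR), and the metallothionein genes Mt1 and Mt2 fell by 3.25 and 3.58 on that scale.

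Thyroid hormone receptor targets counted 2 higher, Cpt1a and Klf9, and 0 lower of 10, with a median of 0.65. Thrsp and Dio1 were at 0.97 and -0.10 without a call. Retinoic acid receptor targets counted 0 higher and 2 lower of 8, with Cyp26a1, the retinoic acid hydroxylase, at 0.12. This list includes the member Rarb, which has its largest value, 2.63, so list and receptor are not separate there. HNF4A targets counted 3 higher and 8 lower of 24 (1 and 6 without HFD replicate 2), and those that fell included abundant secreted proteins such as Apoc3 (-1.58), Trf (-1.33) and Apoa1 (-1.23), while Mttp and Apob rose by 0.62 and 0.92. Several genes stand on more than 1 list, Cpt1a and Cyp7a1 among them.

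**Figure D5:**
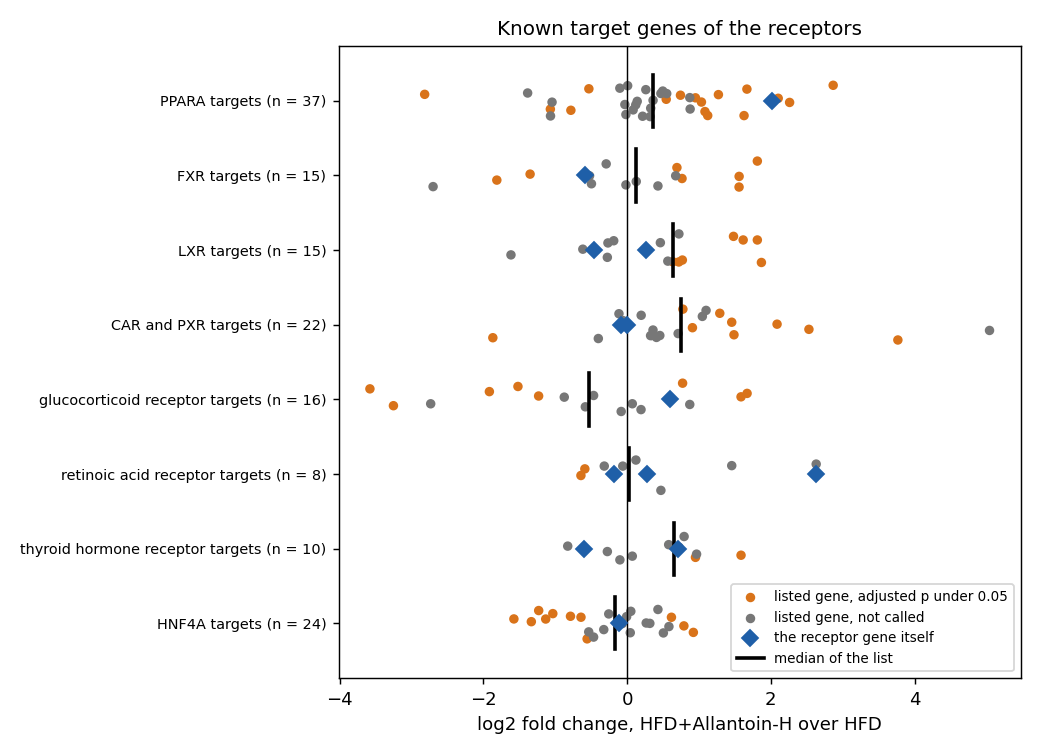
Log2 fold change (horizontal axis) of each tested gene on 8 lists of known targets, orange where the adjusted p was under 0.05, with black bars for the list medians and blue diamonds for the receptor genes themselves. Ppara at 2.02 lies far to the right of the PPARA target median of 0.36, and the glucocorticoid targets spread from -3.58 to 1.67 around a median of -0.52, with Nr3c1 at 0.60.

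Genes of the same classes outside the set, and clock genes, were counted for comparison and are read against the same 11.3% higher and 13.0% lower. Of 16 other nuclear receptor genes, 7 were tested and only Nr0b2 was called. Of 19 other coactivators, 5 were higher and 4 lower, among them Ncoa4 (1.48), the ferritin cargo receptor, and Ppargc1a (0.9997, adjusted p = 0.0343, edgeR), the fasting-induced coactivator of PPARα, which was at 3.49, 3.36 and 5.18 CPM in HFD and 6.82, 9.52 and 7.83 CPM in HFD+Allantoin-H. Crebbp, the acetyltransferase CBP, fell by 1.02 on the log2 scale. Of 15 other corepressors, 3 were higher (Cnot1, Lcor and Tbl1x, at 1.25, 2.40 and 0.99) and 2 lower (Gps2 and Hdac2, at -0.97 and -0.51), while Hdac3 was at -0.33 without a call. Of 16 tested clock genes, which several of these receptors regulate or belong to, 6 were higher and 2 lower, with a median of 0.54. The time of day of sampling is not given in the sources used here, so its part in these results was not tested.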

How the data were processed

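Liver RNA was purified with a Qiagen RNeasy kit, and libraries were made with a SMARTER mRNA-Seq kit and sequenced on an Illumina HiSeq. The authors deposited raw read counts per gene, not normalized, for 3 HFD and 3 HFD+Allantoin-H libraries. The submitters' processing notes name GRCm38 and mm10. The aligner, counter and strand setting are not given in the sources used here. Of the rows, 54532 had an Ensembl identifier, and 429 without one were left out. Symbols and positions came from GENCODE M21 (54495 identifiers found), promoters from RefSeq.

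Counts were analysed in R 4.3.3 with edgeR 4.0.16 (TMM, filterByExpr, quasi-likelihood test, Benjamini-Hochberg adjustment over 12795 genes), group being the only term. Totals of 11326372 to 14601457 counts set the precision, so genes of under 1 CPM rest on few counts. Alternatives were RLE, upper-quartile and library-size scaling, DESeq2 1.42.0, limma-voom (limma 3.58.1), no filter or at least 10 counts per library, no mitochondrial chromosome, length and GC trends removed (splines, 5 degrees of freedom each), and leaving out each library. The fit with features lacking an Ensembl identifier, the within-library ratios and the steroid synthesis genes were added after seeing the data, as were the target lists without HFD replicate 2 or with the length and GC trend removed. Near-identical copies (at least 95% identity over 200 bases) were searched with BLAST 2.17.0. The procedure was run on 3 sets of simulated counts with 200 changed genes each, far fewer than were called here. They held no length or GC trend and no shift in composition, so they do not bear on such effects in these data. Replicates differed by more than sampling noise.

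The members and lists were chosen with earlier results of these data known. Members with an adjusted p under 0.05 were given in full, the others by value and interval or range, and from each other list at most 4 genes with the smallest p plus preset ones. Some preset genes are not reported here.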

Additional observations from a re-analysis of the deposited data

How the results depend on the processing

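Ppara and Rxra were called higher in all 16 alternatives. With library size only, 3162 genes were higher and 674 lower (24.7% and 5.27% of those tested), 16 members were higher, 0 members lay below HFD without overlap, and the median log2 fold change of all tested genes rose from -0.030 to 0.38, so member values are to be read relative to that shift. There Esrra was at 0.13, Hnf4a 0.33, Ncoa3 0.39, Nr1i2 0.46, Nr1i3 0.39, Nr2c1 0.36, Nrip1 0.17, Rara 0.28 and Rxrb 0.35, each against a negative value before. Without a filter 11 members were higher, against 7.71% of all genes in that fit. Upper-quartile factors, DESeq2, limma-voom, at least 10 counts and no mitochondrial chromosome each called 1 member lower, Nr1h4. The signs of uncalled members near 0 also turned with the length and GC trend removed (Nr1i2 0.058, Ppard -0.013, Rara 0.056, Rxrb 0.19), without a filter (Ncoa3 0.014, Nr1i2 0.039), with limma-voom (Nr1i2 0.080, Nr1i3 0.079) and with at least 10 counts (Nr1i2 0.0075). The cause was not tested.

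Leaving out 1 library gave 460 to 1773 genes higher, 564 to 2008 lower, 2 to 8 members higher and 0 to 1 lower, the smallest counts coming without HFD+Allantoin-H replicate 5 for genes. Log2 fold changes then ranged from -0.12 to 0.92 for Esrrg, -0.28 to 0.063 for Hnf4a, -0.19 to 0.092 for Ncoa3, -0.27 to 0.33 for Nr1i2, -0.40 to 0.37 for Nr1i3, -1.11 to 0.071 for Nr2f1, -0.17 to 0.12 for Ppard, -0.48 to 0.11 for Rara, -0.058 to 0.86 for Rarg and -0.21 to 0.11 for Rxrb. Without HFD replicate 2, 2 PPARA targets were lower, 1 retinoic acid receptor target was higher and 1 lower, 1 thyroid hormone receptor target was lower and 1 HNF4A target was higher. The higher retinoic acid receptor target in that fit was Rarb, itself a member of the set. With the length and GC trend removed, 2 PPARA targets were lower and 1 retinoic acid receptor target was higher. Depth limits Rarb, Nr2f1, Nr2c2 and Ppargc1b, with few counts per library. No paired analysis was possible because the groups share no replicate numbers.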
